A study of Homo sapiens with 16 samples.

Results

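The comparison described here is U937 cells after 6 h of UNBS1450 against control cells of the same hour. It rests on the 4 arrays whose labels give 6 h, replicates 1 to 4, out of 16 arrays in the series. U937 is a human line established from a histiocytic lymphoma, with features of monocytes. Each array is a whole-genome array of 2 colours that held RNA of cells given UNBS1450 at 20 nM in one dye and RNA of untreated cells collected at the same time in the other. Cy5 marked the treated RNA on replicates 1 and 2 and the control RNA on the other pair, replicates 3 and 4, so that dye orientation and replicate pair cannot be told apart. The 4 arrays of 0 h serve as the background. The methods give no treatment at 0 h, so both dyes then held untreated cells, although by the labels these cells too had 20 nM of the agent. The labels call the arrays biological replicates of 4 and, in some fields, spell the line U397. The labels do not say which cultures or slides belong to a replicate, so p-values measure the spread between these arrays, which may be partly technical. A single cell line was used throughout.

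UNBS1450 is a cardenolide, a plant steroid of the cardiac glycoside class, which is known to bind the sodium pump of the plasma membrane and to block the exchange of internal sodium for external potassium. When the pump is blocked, sodium accumulates, potassium is lost, and calcium extrusion by the sodium-calcium exchanger slows. Cardiac glycosides are also known to slow protein synthesis in human cells, which lowers short-lived proteins such as MCL1, the anti-apoptotic member of the BCL2 family. The question put to the 6 h arrays is which mRNAs differ before cell death sets in.

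The deposited value of a spot is a log2 ratio of the dyes, and here it is always given as treated over control. Ratios carry no expression level, so the identity of the cells could not be checked against the level of monocyte markers, and the 35 measured genes of the monocyte and granule lineage list had a median log2 ratio of −0.02 at 6 h and −0.02 at 0 h. Values were available for 17329 genes. On single 6 h arrays the share of genes that differed at least 1.3-fold in either direction was 11.1% on replicate 1, 1.08% on replicate 2, 2.71% on replicate 3 and 12.3% on replicate 4. At 0 h the same share ran from 1.59% to 12.4%. Across genes, replicate 1 of 6 h correlated at 0.396 with replicate 2 of 6 h and at 0.774 and 0.771 with replicates 1 and 2 of 0 h, which have the same dye orientation. The 6 h arrays of opposite orientation correlated between −0.122 and 0.193. Genes are not independent replicates, and arrays of one orientation share any dye effect of a gene.

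No mRNA was called changed after 6 h in the least-squares fit of all 16 arrays. In limma, 0 of 17329 genes passed at 1.3-fold or more with an adjusted p under 0.05, and the smallest adjusted p was 0.361. The same test called 0 genes at 0 h and 0 genes in the difference of 6 h and 0 h. Without adjustment, 39 genes were higher and 87 lower at 6 h, which is 0.225% and 0.502% of all genes and 0.727% together. At 0 h, 2 were higher and 98 lower (0.0115% and 0.566%, together 0.577%). In 6 h minus 0 h, 19 were higher and 14 lower (0.110% and 0.0808%, together 0.190%). The names that follow are therefore descriptions of the largest ratios of 4 arrays and not of changes that passed. Their standard errors come from the limma fit of all 16 arrays, which pools the spread within time points and draws on other genes. Such a standard error can be smaller or larger than the 4 arrays of 6 h alone would give. Robust regression in limma, which gives an array far from the others less weight, called 9 genes at 6 h, 4 higher and 5 lower (0.0231% and 0.0289%, together 0.0519%), beside 3 at 0 h, all lower (0.0173%), and it called 0 in the difference of the hours. Without replicate 2 and with a dye coefficient in limma, 43 genes were called higher and 304 lower (0.248% and 1.75%, together 2.00%), and 0 at 0 h or in the difference of the hours.

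The 6 h means were slightly wider than those of untreated cells. The median absolute log2 ratio was 0.068 at 6 h and 0.056 at 0 h, and 188 genes had a mean of at least 1.3-fold at 6 h, 59 of them higher and 129 lower, beside 127 genes at 0 h. On all 4 arrays of 6 h, 1934 genes were above 0 and 1928 below it, which is 11.2% and 11.1% of genes and 22.3% together. On all 4 arrays of 0 h, 6.14% were above 0 and 7.42% below, together 13.6%. For several-spot genes the spot was chosen by its F-statistic over 3, 6 and 9 h, which favours larger values at 6 h than at 0 h. Beyond all 4 arrays of 0 h lay the 4 arrays of 6 h for 158 genes on the high side and 116 on the low side (0.912% and 0.669%, together 1.58%).

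**Figure D1:**
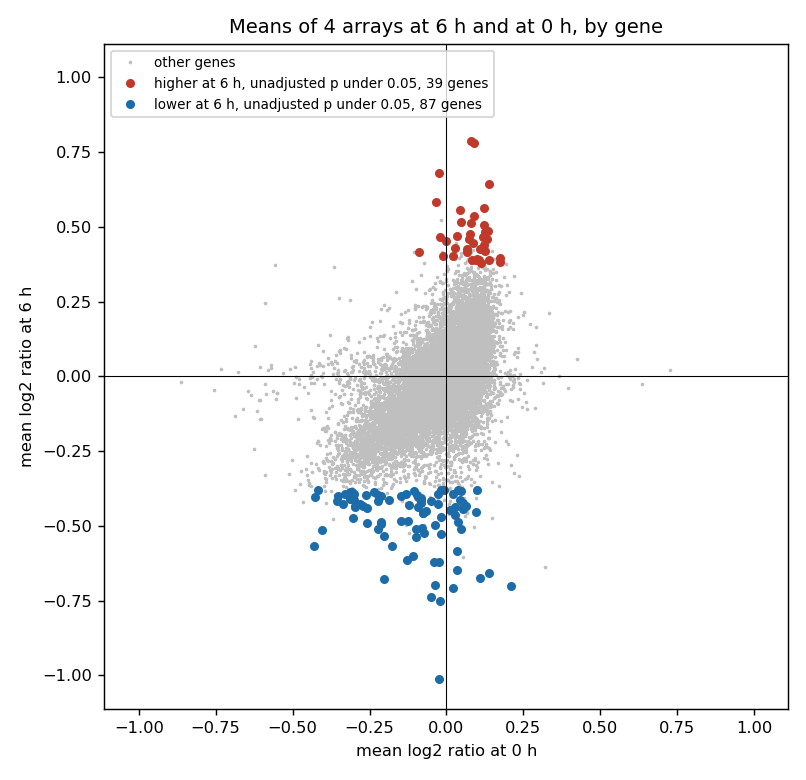
Mean log2 ratio of each of 17329 genes at 0 h (horizontal) and at 6 h (vertical), each over 4 arrays, with the 39 genes higher and the 87 lower at 6 h at an unadjusted p under 0.05 in colour. Of the 87 lower genes 67 lie left of 0, so that their ratio was below 0 in untreated cells too.

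Many of these genes leaned the same way in untreated cells. Of the 87 genes lower at 6 h, 67 had a mean below 0 at 0 h and 4 also passed there, and of the 39 higher genes 33 had a mean above 0 at 0 h. PLK1, UBA1 and XBP1, described further on, are examples. The 13 genes that passed without adjustment both at 6 h and in 6 h minus 0 h were ACER1, ASB5, CD1D, CELF1, CLK4, EIF5, GIMAP8, MIR23AHG, POU5F1P3, RFX1, SLCO4C1, SNX5 and TLR2, and none of the 13 passed with adjustment. The 11 genes among the 126 whose 4 arrays of 6 h lay beyond all 4 of 0 h were SNX5 and HSPA1L on the high side and ASB5, CD1D, DDIT4, EIF5, ELOVL6, GIMAP8, ID3, MMAA and S100A14 on the low side. Of all genes, 1.58% lay beyond 0 h in this way. The 126 were picked for large ratios at 6 h, which favours such a gap, so the 11 are a description only.

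Among the genes with the highest means, 2 of the top 3 are known from endosomes and redox control. TXNIP, the arrestin-like protein that binds thioredoxin and restrains glucose uptake, had log2 ratios of 0.58, 0.31, 0.13 and 2.13 on replicates 1 to 4. Their mean was 0.79 and their SD 0.91 (limma standard error 0.29, limma adjusted p = 0.365). All 4 arrays were above 0, and replicate 4 alone was far above the 0 h arrays, which ran from −0.13 to 0.33. The other TXNIP spot averaged 0.23 at 6 h. Its relative ARRDC4, also an arrestin-domain protein, had 0.38, 0.17, 0.10 and 1.20 and a mean of 0.46 (limma adjusted p = 0.406), while the 17 measured genes of the list that holds both had a median of 0.01. SNX5, a sorting nexin that returns cargo from endosomes, had 0.44, 0.38, 0.36 and 1.95 and a mean of 0.78 (standard error 0.22, limma adjusted p = 0.361). Every 6 h array of SNX5 was above every 0 h array, of which the highest was 0.32. A second SNX5 spot averaged −0.02, so the height belongs to one of its spots.

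Translation, transcription and kinase genes followed. EIF1B, a close relative of the factor that helps the ribosome choose its start codon, had 0.82, 0.54, 0.13 and 1.09 and a mean of 0.64 (standard error 0.17, limma adjusted p = 0.361). Its arrays overlapped those of 0 h, where replicates 1 and 2 stood at 0.56 and 0.46 and replicates 3 and 4 at −0.19 and −0.29. That split follows the replicate pairs, which also differ in dye orientation. KLF10, a zinc-finger repressor induced by TGF-beta, had 0.39, 0.10, 0.20 and 1.45 and a mean of 0.54 (limma adjusted p = 0.395). PIM1, a serine/threonine kinase that favours survival, had 0.15, 0.08, 0.32 and 1.38 and a mean of 0.48 (limma adjusted p = 0.407). PNRC1, a nuclear receptor coactivator, had 0.20, 0.01, 0.44 and 1.41 and a mean of 0.52 (limma adjusted p = 0.398). Replicate 4 was the highest array of all 4 genes, and of KLF10, PIM1 and PNRC1 no other array was above 0.44. NUP58, a nucleoporin of the central channel of the nuclear pore, ranged from 0.06 to 1.44, and TMEM161B, a membrane protein, from 0.06 to 1.11, again with replicate 4 highest, although another NUP58 spot averaged −0.04.

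Some genes were higher with less of a gap between arrays. SLCO4C1, an organic anion transporter known to carry the cardiac glycoside digoxin in kidney cells, had 0.43, 0.25, 0.36 and 0.99 and a mean of 0.51 (standard error 0.12, limma adjusted p = 0.361, 0.043 with robust regression), against a range of −0.09 to 0.27 at 0 h. The other SLCO4C1 spot averaged 0.04 at 6 h. CLK4, a kinase that phosphorylates splicing factors of the SR family, had 0.58, 0.22, 0.26 and 0.82 and a mean of 0.47 (standard error 0.11, limma adjusted p = 0.361, 0.036 with robust regression). Its 2 spots averaged 0.40 and 0.47. TLR2, the receptor of innate immunity for bacterial lipoproteins, had 0.58, 0.03, 0.35 and 0.75 and a mean of 0.43 (standard error 0.09, limma adjusted p = 0.361, 0.023 with robust regression), and the 6 h minus 0 h difference was 0.40 with an unadjusted limma p of 0.008 and an adjusted p of 0.9997. SNX5 at an adjusted p of 0.023 was the other gene that robust regression called higher. All arrays of these genes were above 0, and only in SNX5 did all of them exceed 0 h.

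Transcription factors of the E2F family, which time entry into S phase, differed among themselves. E2F8, a repressor that ends the S-phase programme, had 0.71, 0.44, −0.14 and 1.04 and a mean of 0.51 (limma adjusted p = 0.391). E2F2, an activator of S-phase entry, had 0.44, 0.16, 0.08 and 1.02 and a mean of 0.42 (limma adjusted p = 0.392). E2F7, the closest relative of E2F8 and named after its values were seen, had 0.15, 0.12, 0.19 and 1.10 and a mean of 0.39 (limma adjusted p = 0.413). E2F1, an activator, had −0.02, 0.10, −0.05 and 0.50, and E2F4, known as a repressor in resting cells, had −0.61, −0.09, −0.08 and −0.20 and a mean of −0.25, beside −0.08 at its other spot. These 2 were also named after their values were seen. E2F4 was among the genes called lower without replicate 2 and with a dye coefficient, and in that fit it stood at −0.18 at 0 h. Among the 45 measured genes of DNA replication and the G1/S transition, 28 were above 0, 9 were above 0 on all 4 arrays (20.0%, against 11.2% of all genes) and 4 below it on all 4, and the median was 0.08 at 6 h and 0.02 at 0 h. The list median was −0.02 on replicates 1 and 2, 0.05 on replicate 3 and 0.13 on replicate 4, a split by replicate pair and thus also by dye. CCND1, the cyclin of early G1, was on the other side with −0.34, −0.18, −0.10 and −0.49 and a mean of −0.28 (limma adjusted p = 0.361).

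At the other end stood DDIT4 and EIF5. DDIT4, a brake on mTOR signalling that stress induces and a target of the factor ATF4, had −0.44, −0.14, −0.61 and −1.77 and a mean of −0.74 (standard error 0.25, limma adjusted p = 0.361, 0.017 with robust regression), and all 4 arrays lay below the 0 h range of −0.10 to 0.02. Its other spot averaged 0.01. EIF5, the factor that makes eIF2 hydrolyse GTP when the start codon is found, had −0.40, −0.20, −0.66 and −1.45 and a mean of −0.67 (standard error 0.24, limma adjusted p = 0.361). Its 4 spots averaged between −0.99 and −0.67, and the 0 h arrays ran from −0.12 to 0.34. For EIF5 every spot and every array was below 0, and the 6 h minus 0 h difference was −0.79 with an unadjusted limma p of 0.034 and an adjusted p of 0.9997.

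Lipid genes and pseudogenes made up part of the rest. ACER1, an alkaline ceramidase known from skin, had −0.69, −0.88, −0.37 and −0.40 and a mean of −0.58 (standard error 0.17, limma adjusted p = 0.361), the most even of the 10 lowest genes that had all 4 arrays on one side of 0, although the 0 h arrays reached −0.39. ELOVL6, which lengthens saturated fatty acids, had −0.34, −0.57, −0.39 and −0.22 and a mean of −0.38 (standard error 0.09, limma adjusted p = 0.361, 0.019 with robust regression), below all 0 h arrays, of which the lowest was −0.16. POU5F1P3, a pseudogene of the pluripotency factor POU5F1 whose probe may also catch its parent or other copies, had −0.71, −1.28, −0.78 and −0.03 and a mean of −0.70 (limma adjusted p = 0.361, 0.016 with robust regression). Robust regression also called PTPN18, a tyrosine phosphatase, lower (mean −0.31 with all arrays) and POTEF, a gene of a family with near-identical copies and an actin-like part (mean −0.37). Both were below 0 at 0 h, with means of −0.20 and −0.26.

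Several of the lowest means rested on a single array. SSR4P1, a pseudogene and the lowest of all means at −1.01, had −0.03, −3.46, −0.17 and −0.40. ASAP3, a GTPase activator for ARF proteins, had −2.41 on replicate 2 and between −0.17 and −0.08 on the others. PPM1F, a phosphatase, and TAT, the liver enzyme tyrosine aminotransferase, had −1.99 and −2.04 on replicate 3, and DMRT3, a DM-domain transcription factor, had −2.05 on replicate 1, with no other array of the 3 genes below −0.28. On the high side HSPA1L had 2.33 on replicate 4 and 0.08 to 0.17 elsewhere. Across the 126 genes that passed without adjustment, the most extreme array was replicate 4 in 68, replicate 3 in 31, replicate 1 in 17 and replicate 2 in 10, and among the 39 higher genes it was replicate 4 in 35. The other 3 arrays still averaged at least 1.3-fold in 7 genes, namely SNX5, EIF1B, DDIT4, EIF5, ACER1, POU5F1P3 and TRIM25, a ubiquitin ligase of antiviral signalling that was named after its values were seen. The other TRIM25 spot averaged 0.01 at 6 h. In 20 genes the other 3 arrays averaged under 0.1 in the direction of the mean, and in 16 of the 20 the extreme array was replicate 3. Of the 77 genes with several spots, 28 had spots on both sides of 0.

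**Figure D2:**
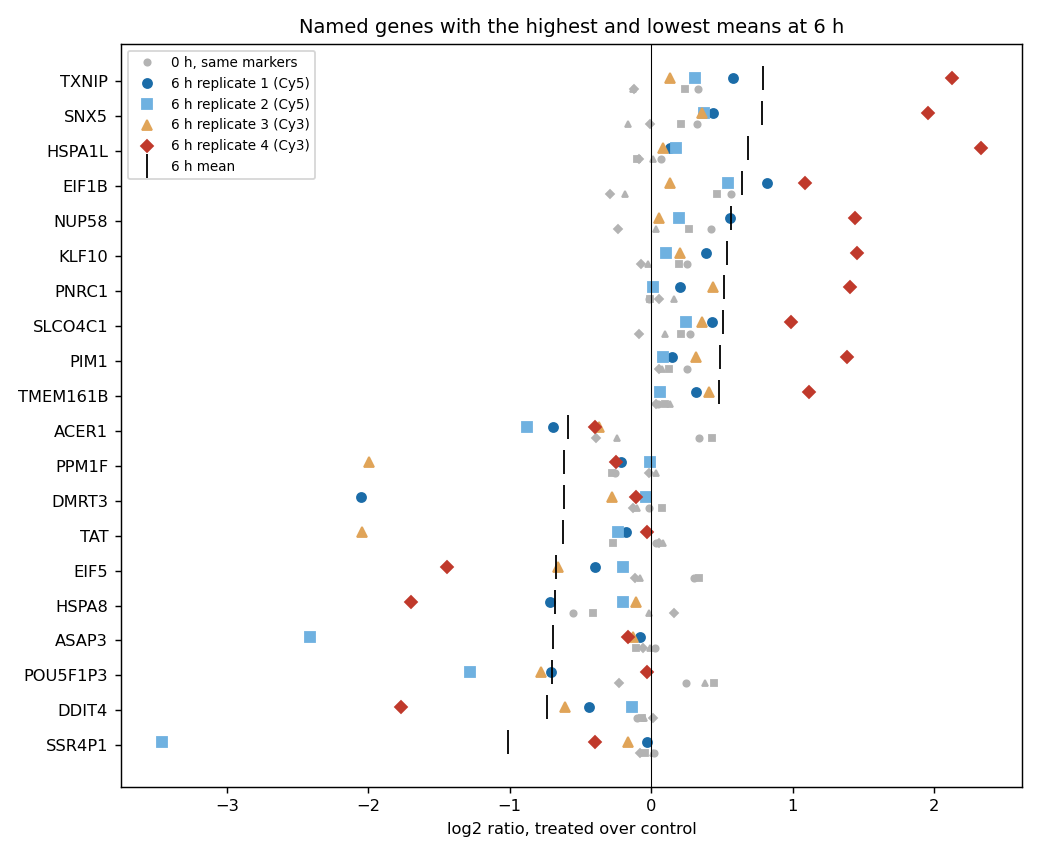
Log2 ratio of the 10 highest and the 10 lowest named genes on each 6 h array (coloured markers, with the dye of the treated RNA), their mean (bar) and the 4 arrays of 0 h (grey). Replicate 4 is the rightmost marker of all 10 higher genes, and SSR4P1, ASAP3, TAT, PPM1F and DMRT3 have a single marker at −1.99 or lower.

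**Figure D3:**
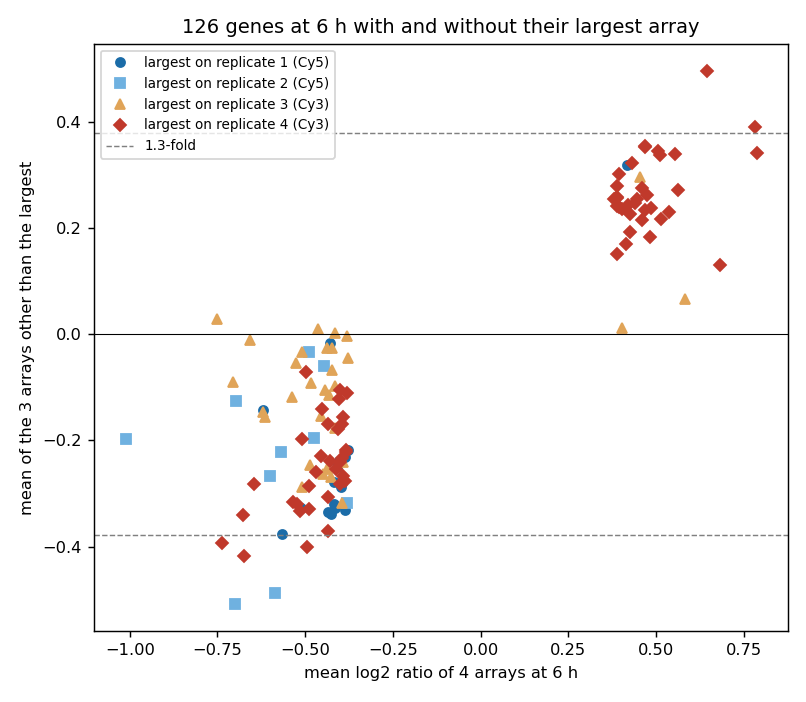
The 126 genes that passed without adjustment at 6 h, by the mean log2 ratio of 4 arrays (horizontal) and the mean of the 3 arrays left when the most extreme is set aside (vertical), with the marker showing which array that was. Beyond the dashed 1.3-fold lines lie 7 genes, 2 higher and 5 lower.

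Genes with many spots show how far the array and how far the spot set a value. The platform carries 10 or more spots for 193 genes, and the spot means of 114 of them lay on one side of 0 at 6 h, 61 higher and 53 lower. The median SD was 0.033 over the spots of a gene, each spot taken as its mean of 4 arrays. It was 0.143 over the 4 arrays, each array taken as its mean of all spots. In the median of these 193 genes the arrays therefore differed more than the spots did, though not in every gene. Whether the spots of a gene carry the same probe was not examined, so this may not hold for genes with few spots. Averaged over all spots of each gene, 23 of the 193 were above 0 on all 4 arrays and 18 below. The examples are among the 7 genes with the smallest unadjusted limma p of the 193, and CD69, PLA2G4A and PRKCD were named after their values were seen. None of the 193 passed adjustment in limma (lowest adjusted p = 0.493). VEGFA, the angiogenic factor induced by hypoxia and by ATF4, averaged −0.22, −0.01, −0.32 and −0.46 over 12 spots on replicates 1 to 4. The VEGFA spots lay between −0.70 and −0.13, a wider range than that of its arrays. CD69, an early activation marker of leukocytes, averaged 0.38, 0.20, 0.09 and 0.38 over 10 spots that lay between 0.22 and 0.31. PLA2G4A, the phospholipase that frees arachidonic acid, averaged 0.37, 0.07, 0.25 and 0.24, with spots between 0.20 and 0.27. CD69 and PLA2G4A had all arrays above 0 at 6 h, but at 0 h their replicates 1 and 2 were as high, at 0.40 and 0.27 for CD69 and 0.39 and 0.33 for PLA2G4A. TLR2 averaged 0.29, −0.001, 0.31 and 0.68 over 10 spots, so that replicate 2 was not above 0 for the mean of spots. PRKCD, a protein kinase C isoform, averaged −0.51, −0.05, −0.14 and −0.20 at 6 h and −0.26 at 0 h.

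**Figure D4:**
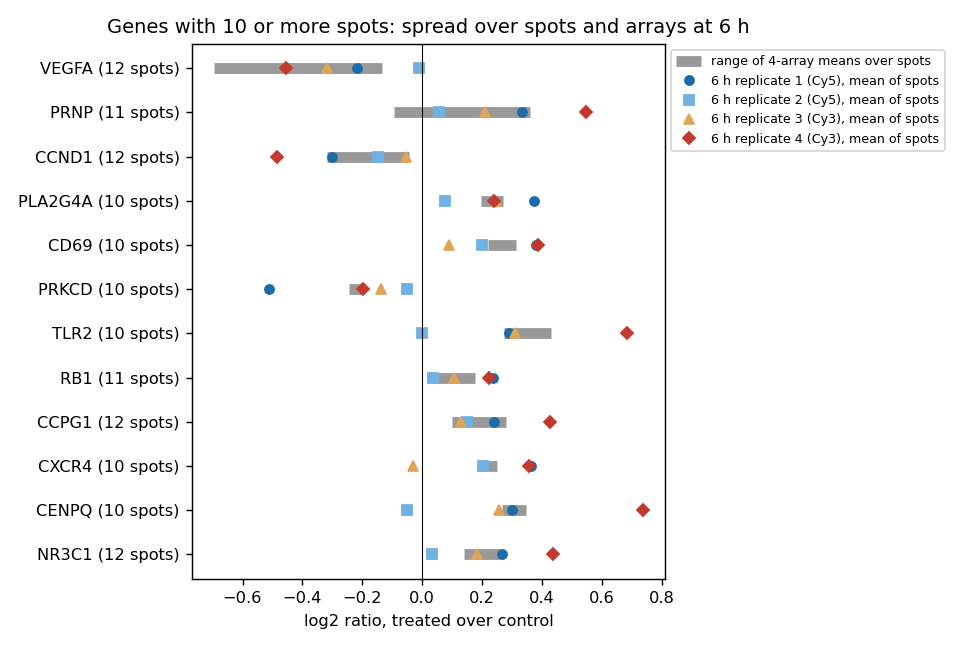
The 12 genes with 10 or more spots that had the smallest unadjusted p at 6 h, with the range of their spot means over 4 arrays (grey bar) and the mean of all spots on each 6 h array (markers), as log2 ratios. For CD69, PLA2G4A and TLR2 the markers span a wider range than the bar. For VEGFA the bar, from −0.70 to −0.13, spans a wider range than the markers.

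The measured sodium pump subunits and cation transporters showed no common direction. Of 26 measured genes of sodium pump subunits and cation transporters, 15 were above 0 and 11 below, with 5 above 0 and 3 below 0 on all 4 arrays, a median of 0.01 at 6 h and 0.03 at 0 h, and 0 passing at 1.3-fold without adjustment, where 0.727% of all genes passed. The catalytic alpha subunits of the pump, the known target of cardiac glycosides, were not analysed here. SLC8A1, the sodium-calcium exchanger that uses the inward sodium gradient to expel calcium, had 0.22, 0.08, 0.19 and 0.45 and a mean of 0.24 (standard error 0.07, limma adjusted p = 0.361), and 0.13 at 0 h. Of its 4 spots the lowest averaged −0.01. ATP1B1, a beta subunit that brings the pump to the membrane, had 0.00, 0.13, 0.25 and 0.39 and a mean of 0.19 (limma adjusted p = 0.447). ATP1B3, another beta subunit, had 0.53, 0.12, −0.09 and −0.01, a split by replicate pair and thus also by dye. FXYD5, a small regulator of the pump, averaged −0.24 at 6 h and −0.30 at 0 h.

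In the BCL2 family 10 of 23 measured genes were above 0 and 13 below. MCL1 was the only member below 0 on all 4 arrays of 6 h (4.35%, against 11.1% of all genes), and 2 members were at 0 h. MCL1 had −0.29, −0.07, −0.17 and −0.19 and a mean of −0.18 (standard error 0.06, limma adjusted p = 0.361). The same gene had −0.18, −0.19, −0.05 and −0.04 at 0 h, so the groups overlapped, and 6 h minus 0 h was −0.07 (limma adjusted p = 0.9997). Another of its 3 spots averaged 0.14 at 6 h, on the other side of 0. BCL2L1, which encodes Bcl-xL, had −0.35, 0.09, 0.01 and −0.78 and a mean of −0.26 (limma adjusted p = 0.555). This was the lowest of its 11 spots, over which the mean was −0.19 at 6 h and −0.23 at 0 h. BCL2 averaged −0.03 at the spot used and 0.07 over its 11 spots, and the pore-forming members BAX and BAK1 averaged −0.10 and −0.03, with BAK1 running from −0.53 on replicate 1 to 0.46 on replicate 4. PMAIP1, which encodes the MCL1 partner NOXA, had 0.37, −0.10, 0.14 and 0.14 and a mean of 0.14 (limma adjusted p = 0.676). Over its 10 spots the mean was 0.22, with 0.68 on replicate 4. BNIP3L, a receptor for the removal of mitochondria, had 0.21, −0.05, 0.33 and 0.21. None of these genes reached 1.3-fold in the mean.

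Genes of protein turnover lay on both sides of 0. The ubiquitin ligases HUWE1 and FBXW7 averaged −0.08 and 0.10, and the deubiquitinase USP9X averaged 0.02. The 43 measured proteasome genes had a median of −0.01, with 6 above 0 and 8 below 0 on all 4 arrays. PSMB8, the immunoproteasome subunit, had the smallest unadjusted p of the list with −0.22, −0.07, −0.15 and −0.16, and it stood at −0.11 at 0 h. UBA1, the ubiquitin-activating enzyme, had −0.86, −0.02, −0.15 and −0.49 at 6 h and −0.67, −0.90, −0.08 and −0.02 at 0 h, a mean of −0.38 at 6 h and −0.42 at 0 h. The E3 component ARMC8 had 0.28, 0.21, 0.28 and 1.02 (limma adjusted p = 0.361), and another of its 4 spots averaged −0.07.

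Stress pathways differed in the direction of their members. Of 29 measured ATF4 targets of the amino acid response, 24 were below 0 at 6 h (82.8%, against 52.3% of all genes) and 14 at 0 h, with 7 below 0 on all 4 arrays (24.1%, against 11.1% of all genes) and 0 above it. Their median was −0.08 at 6 h and 0.0006 at 0 h, and on replicates 1 to 4 of 6 h it was −0.05, −0.05, −0.07 and −0.24. SLC7A5, the leucine transporter LAT1, had −0.47, −0.10, −0.26 and −0.72 and a mean of −0.39 (standard error 0.12, limma adjusted p = 0.361), beside −0.23 at 0 h. SESN2, which holds back mTORC1 when leucine is short, averaged −0.18, and PHGDH, the first enzyme of serine synthesis, averaged −0.30. ATF4 itself averaged 0.04, ASNS, the asparagine synthetase, 0.01, and DDIT3, the pro-apoptotic factor CHOP, −0.08. Of the 27 measured chaperones of the heat shock response 16 were below 0, 6 of them on all 4 arrays, with a median of −0.06 at 6 h and −0.02 at 0 h, and on replicate 4 alone the median was −0.25.

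HSPA8, the constitutive Hsp70 chaperone, had −0.72, −0.20, −0.10 and −1.70 and a mean of −0.68 (standard error 0.29, limma adjusted p = 0.395), and its 5 spots averaged between −0.68 and −0.08. HSPA1A, the inducible Hsp70, had −0.34, 0.06, −0.22 and −1.23 and a mean of −0.44 (limma adjusted p = 0.365). HSPA1L, a neighbour of similar sequence, had a mean of 0.68 that came from replicate 4, and its other spot averaged −0.17. HSPD1, the mitochondrial Hsp60, was even across arrays with −0.31, −0.20, −0.40 and −0.29. Members of the Hsp70 family share sequence, and whether probes caught more than one of them was not tested. In the list of the unfolded protein response 17 of 30 genes were above 0. ERN1, the sensor IRE1 that splices XBP1 mRNA, had 0.25, 0.20, 0.22 and 0.52 and a mean of 0.30 (standard error 0.06, limma adjusted p = 0.361), against 0.02 to 0.08 at 0 h, so that its groups did not overlap. Its 4 spots averaged between 0.004 and 0.30. XBP1 had −0.68, −0.22, −0.09 and −0.97 and a mean of −0.49 (limma adjusted p = 0.361), and −0.26 at 0 h.

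Most synthetase and ribosomal protein genes stood below 0 both at 6 h and in untreated cells. Of 19 measured cytosolic aminoacyl-tRNA synthetase genes, which load amino acids onto tRNA, 14 were below 0 at both hours, and the median was −0.20 at 6 h and −0.17 at 0 h. On replicates 1 to 4 it was −0.42, −0.07, −0.05 and −0.19 at 6 h and −0.35, −0.36, 0.03 and −0.01 at 0 h. MARS1, the methionyl enzyme, had −0.62, −0.19, −0.30 and −0.63 and a mean of −0.43 (standard error 0.13, limma adjusted p = 0.361), beside −0.30 at 0 h, and its other spot averaged 0.02. YARS1 averaged −0.37, QARS1 −0.35 and AARS1 −0.28, whereas TARS1 stood at 0.07. The 54 ribosomal protein genes had a median of −0.10 at 6 h and −0.12 at 0 h, with 44 and 45 below 0. Of 51 ribosome biogenesis factors 35 were below 0 at 6 h and 27 at 0 h, 15 of them on all 4 arrays of 6 h (29.4%) and 3 on all 4 of 0 h, with medians of −0.09 and −0.01. Initiation factors (22 of 42 below 0 at 6 h, 52.4%) and mitochondrial ribosomal protein genes (35 of 63, 55.6%) were near the 52.3% of all genes. At 0 h 24 and 23 of them were below 0. PES1, a processing factor of the large subunit, averaged −0.26 at 6 h and −0.24 at 0 h.

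The promoters of these genes were read for a motif of the stress response, to show what members that lie together or apart have in common. The windows hold 250 bases before and 50 after a start site of RefSeq on GRCh38.p14, the first listed for each gene, and 13677 measured genes had one. The letters TTGCATCA, on either strand, form an element bound by pairs of C/EBP and ATF proteins. They were found in 5 of 16 synthetase promoters, in 1 of 22 of the ATF4 targets, that of CHAC1, and in 0.621% of all 13677. The window of MARS1, at chr12:57487818-57488117 on the plus strand, is shown whole, since MARS1 had the lowest mean of the list, and the matches of AARS1 (chr16:70289674-70289705, minus) and TARS1 (chr5:33440955-33440986, plus) follow with 12 bases on each side. Capitals mark the match.
MARS1: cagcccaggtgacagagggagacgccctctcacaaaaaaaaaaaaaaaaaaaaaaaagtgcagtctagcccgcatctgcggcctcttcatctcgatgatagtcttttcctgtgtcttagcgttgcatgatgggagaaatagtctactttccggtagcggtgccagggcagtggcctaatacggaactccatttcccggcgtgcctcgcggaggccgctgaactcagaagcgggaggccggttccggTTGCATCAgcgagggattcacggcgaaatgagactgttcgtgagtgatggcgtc
AARS1: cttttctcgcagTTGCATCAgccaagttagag
TARS1: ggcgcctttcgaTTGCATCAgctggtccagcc
Of the genes shown, MARS1 averaged −0.43, AARS1 −0.28 and TARS1 0.07 at 6 h. A match is a description of letters and not a site shown to be bound.

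The windows of TXNIP and HSPA8 are shown for the highest gene and the lowest chaperone. TXNIP (chr1:145996530-145996829, minus) holds the carbohydrate response pattern, CACGNG and CNCGNG with 5 bases between them, which is in 0.738% of all windows and in 1 of 14 of the list of arrestin relatives and thioredoxin. HSPA8 (chr11:123062087-123062386, minus) holds the heat shock pattern, GAA, TTC and GAA with 2 bases between neighbours, at 2 places. It is found in 0.388% of all windows and in 4 of 24 chaperone windows, the others being those of DNAJA1, DNAJB6 and CHORDC1. Both strands were searched, N is any base, and capitals mark the matches.
TXNIP: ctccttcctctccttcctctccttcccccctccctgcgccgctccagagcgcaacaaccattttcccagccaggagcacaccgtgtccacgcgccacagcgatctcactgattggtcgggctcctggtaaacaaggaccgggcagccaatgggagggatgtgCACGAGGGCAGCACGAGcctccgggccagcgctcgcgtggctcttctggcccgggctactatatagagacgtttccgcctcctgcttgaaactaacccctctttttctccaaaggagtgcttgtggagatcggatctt
HSPA8: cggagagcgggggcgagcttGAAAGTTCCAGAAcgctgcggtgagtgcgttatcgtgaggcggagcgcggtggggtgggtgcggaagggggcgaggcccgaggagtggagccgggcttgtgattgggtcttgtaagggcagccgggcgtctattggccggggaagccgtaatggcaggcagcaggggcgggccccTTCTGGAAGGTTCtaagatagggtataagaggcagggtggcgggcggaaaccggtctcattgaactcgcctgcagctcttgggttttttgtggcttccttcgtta
DNAJA1, DNAJB6 and CHORDC1 averaged −0.08, −0.17 and −0.06 at 6 h, closer to 0 than HSPA8 at −0.68.

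Histone genes had the highest list median. Of 55 measured histone genes 51 were above 0 at 6 h and 50 at 0 h, with medians of 0.17 and 0.06, but none was above 0 on all 4 arrays of 6 h. The list median was 0.04 on replicate 1, 0.14 on replicate 2, −0.10 on replicate 3 and 0.59 on replicate 4. H2AC17 had 0.00, 0.31, −0.14 and 1.25, and H4C1, with the smallest unadjusted p of the list, had 0.16, 0.25, −0.004 and 0.69 (limma adjusted p = 0.369). Replicates 3 and 4, of one dye orientation, therefore stood at opposite ends. Histone genes are near-identical copies that probes may not tell apart, so the members are not independent.

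Inflammatory genes were near 0 as groups. The 31 measured cytokines and chemokines had a median of −0.01, with 15 above 0 and 16 below, and the 29 interferon-stimulated genes had −0.02. CXCL3, a neutrophil chemokine, had −0.15, −0.09, −0.23 and −0.26 and a mean of −0.18 (limma adjusted p = 0.361). Of 26 NF-kB subunits and regulators 15 were below 0, 6 of them on all 4 arrays (23.1%, against 11.1% of all genes), and the median was −0.01. RELA, the p65 subunit, had −0.41, −0.02, −0.11 and −0.54 and a mean of −0.27 (standard error 0.08, limma adjusted p = 0.361), and averaged −0.25 at 0 h, so the hours overlapped. This was the lowest of its 10 spots, over which the mean was −0.15, with replicate 2 at 0.13. NFKB1, the precursor of the p50 subunit, had 0.07, −0.08, 0.38 and 0.20 and a mean of 0.14 (limma adjusted p = 0.401). MTOR, the growth kinase, had −0.58, −0.20, −0.23 and −0.17 at 6 h (limma adjusted p = 0.361) and averaged −0.19 at 0 h.

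The remaining lists added single genes. CYP51A1, the lanosterol demethylase of cholesterol synthesis, had 0.23, 0.07, 0.32 and 0.27 (limma adjusted p = 0.361), within a list of 28 genes whose median was 0.03, and its other spot averaged −0.01. FADD, the adaptor of death receptors, had −0.31, −0.25, −0.10 and −0.72 (limma adjusted p = 0.361) in a list with a median of 0.02. ID3, an inhibitor of helix-loop-helix factors, had −0.22, −0.17, −0.12 and −1.07 (limma adjusted p = 0.399), all below the 0 h arrays. JUNB, an immediate early transcription factor, had 0.19, 0.16, 0.16 and 0.40 (limma adjusted p = 0.361), while another spot averaged −0.26. PLK1, a kinase of mitosis, averaged −0.40 at 6 h and −0.43 at 0 h, and PLK4, which duplicates centrioles, had 0.22, 0.08, 0.40 and 0.59 at 6 h (limma adjusted p = 0.361). Of markers of cell types that the line should lack, the T cell, B cell and erythroid lists had medians of 0.03, 0.01 and 0.01. Over the 42 lists, 20 medians were above 0 and 22 below, 30 had the same sign at 0 h, and 0 of the 1306 measured genes of the lists were called.

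**Figure D5:**
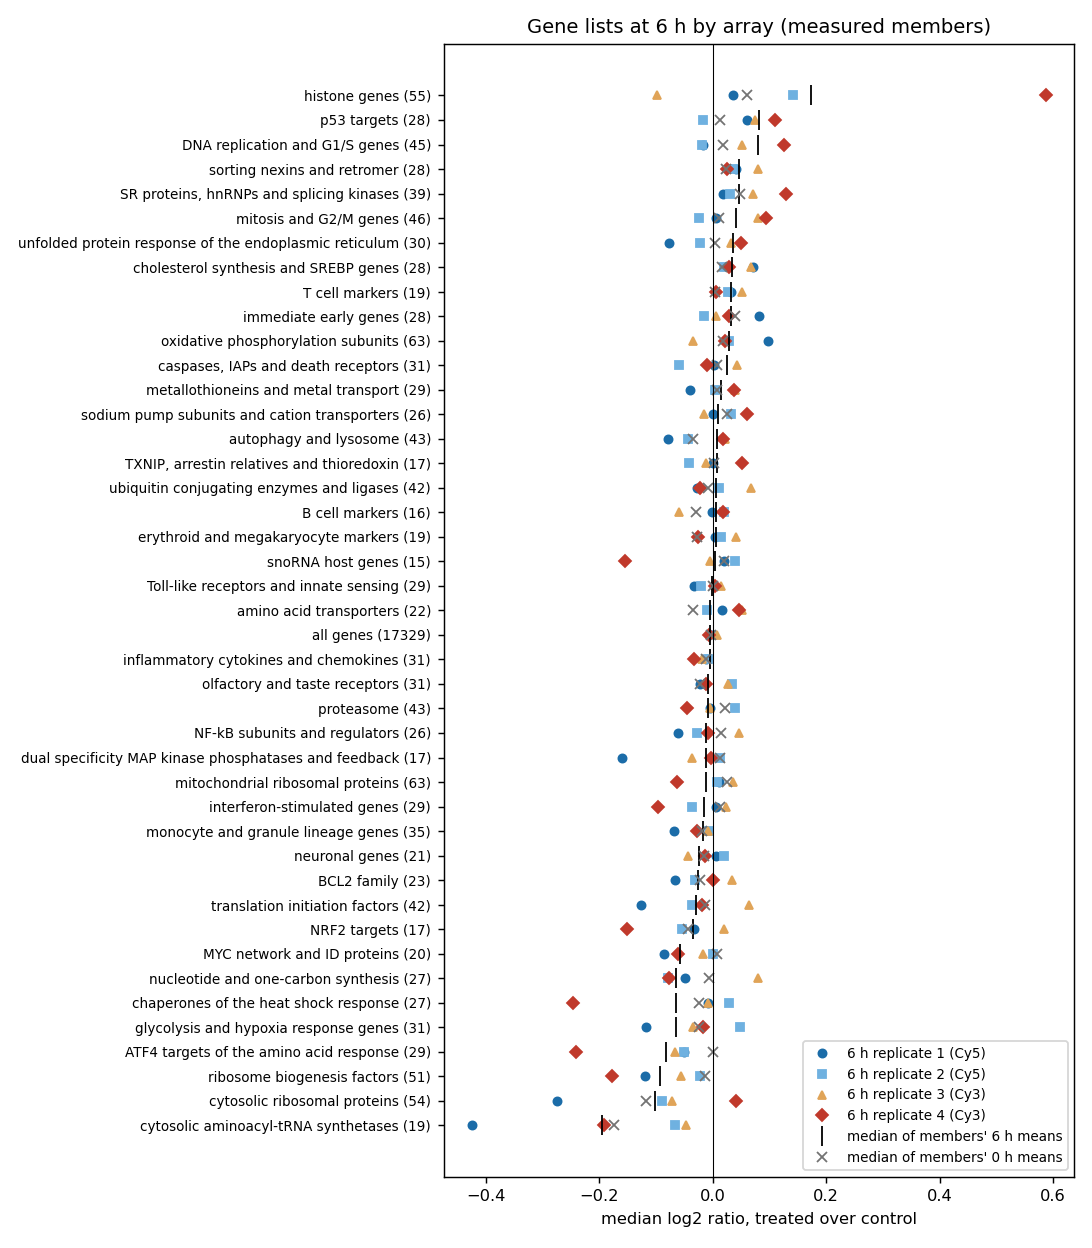
Median log2 ratio of each gene list on the 4 arrays of 6 h (coloured markers), the median of the members' 6 h means (bar) and of their 0 h means (cross), with the number of measured members in brackets. Histone genes reach 0.59 on replicate 4 and lie at −0.10 on replicate 3, and the synthetase and ribosomal protein lists have bar and cross close together below 0.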

How the data were processed

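Arrays of 2 colours with RNA of U937 cells were read as deposited. The deposited values are log2 ratios of Cy5 over Cy3 per spot, made by the authors from scanner signals by normexp background correction with an offset of 50, loess within arrays and Aquantile between arrays, and the authors' processing notes name limma (version not given). Replicates 3 and 4 were turned in sign. Of 45220 spots, 40563 had values, and 28970 of these carry a single gene symbol in the platform annotation, giving 17329 genes, of which 17305 symbols were updated by gene identifier. One linear model for the 16 arrays had a coefficient for each time point (limma 3.58.1, R 4.3.3) on the spot of each gene with the highest F-statistic, with Benjamini-Hochberg adjustment over genes. Genes were called at 1.3-fold and an adjusted p under 0.05. Standard errors are those of this model, with limma's moderated variance, and not those of the 4 arrays of a single time point. The fit was tested on simulated data with normal noise that was independent between arrays and free of dye effects. That test does not show how the fit handles correlated arrays or single distant arrays such as those seen here. Intensities were not analysed, so no depth or detection can be given, and 4 arrays limit the precision.

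Named genes were the 10 highest and 10 lowest means among genes at 1.3-fold, unadjusted p under 0.05 and 4 arrays on one side of 0, the member of each list with the smallest p and up to 2 more that passed without adjustment, up to 10 genes called with robust regression or a dye coefficient, and genes the study discusses. Other members are values of a list or were named after their values were seen. Members and lists were chosen with earlier results of these data known. Alternatives covered dye, block, regression, weights, spots, scaling and left-out replicates (statmod 1.5.0). Promoters came from RefSeq on GRCh38.p14. Figures used Python 3.11.15, numpy 2.4.6, pandas 2.3.3 and matplotlib 3.10.9. Some promoter windows are not reported here.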

Additional observations from a re-analysis of the deposited data

Results flagged for a closer look

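A sample far from the other 3 was found in 17 of 122 sets of 4 arrays examined at 6 h, the 80 named genes and the 42 gene lists. Chance alone flags about 1 in 20 such sets, and the named genes were partly chosen by their means, so the sets are not independent of size. The distant array was replicate 4 in 9 cases, replicate 2 in 3, replicate 3 in 3 and replicate 1 in 2.

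On replicate 4 the log2 ratio was 1.95 for SNX5 (others 0.36 to 0.44), 2.33 for HSPA1L (0.08 to 0.17), 1.02 for ARMC8 (0.21 to 0.28), 0.52 for ERN1 (0.20 to 0.25), 0.78 for TAF1D, a subunit of the RNA polymerase I factor SL1 (0.04 to 0.11), 0.40 for JUNB (0.16 to 0.19) and −1.07 for ID3 (−0.22 to −0.12). On the same array the median was −0.24 for the ATF4 targets (others −0.07 to −0.05) and −0.25 for the heat shock chaperones (−0.01 to 0.03). On replicate 1 the value was −0.58 for MTOR (−0.23 to −0.17) and −2.05 for DMRT3 (−0.28 to −0.04). On replicate 2 it was −0.0067 for PTPN18 (−0.45 to −0.38), −2.41 for ASAP3 (−0.17 to −0.08) and −3.46 for SSR4P1 (−0.40 to −0.03). On replicate 3 it was −1.88 for SYT1, a synaptic vesicle protein (−0.08 to 0.07), −1.99 for PPM1F (−0.25 to −0.01) and −2.04 for TAT (−0.24 to −0.03).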

How the results depend on the processing

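Whether any gene passed adjustment at 6 h depended on the setting. Robust regression called 9 genes at 6 h and 3 at 0 h, and leaving out replicate 2 with a dye coefficient called 347. Leaving out 1 replicate at a time called 0 genes without a dye coefficient and 0 to 347 with it. The other 12 settings at 6 h called 0, as did every setting in 6 h minus 0 h. The 347 genes, 43 higher and 304 lower, were on the same side of 0 at 0 h in that fit in 42 and 303 cases, and 0 were called there or in the difference. Replicate 2 itself was below 0 for 247 of the 304. The list with the most of them was that of the synthetases, with 5 of 19 lower, where 1.75% of all genes were. The cause was not tested.

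The 126 genes that passed without adjustment became 56 with robust regression, 60 with the mean of all spots and 82 with the lowest-numbered spot of each gene. Leaving out 1 replicate gave 95 to 335, or 104 to 532 with a dye coefficient, the largest without replicate 2 (335 and 532), then without replicate 3 (248 and 408). The replicate numbers were used as a block because groups share them. Deviations of same-numbered arrays of 6 h and 0 h correlated between 0.006 (replicate 2) and 0.499 across genes, so that not every pair passed 0.1 and the numbers were not taken to pair these groups. Against 3 h the values were 0.145 to 0.601 and against 9 h 0.325 to 0.647, and arrays of one number share the dye. With the dye coefficient removed, same-numbered arrays of 6 h and 0 h correlated between −0.41 and 0.0848. The same values were −0.117 to 0.179 against 3 h and 0.122 to 0.494 against 9 h. The replicate block called 0 genes and left 126 without adjustment (consensus correlation 0.253), 144 with a dye coefficient as well, and as a fixed effect it called 0 in 6 h minus 0 h.

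With the lowest-numbered spot the mean crossed 0 for SNX5 (−0.0236), NUP58 (−0.0274), SLC8A1 (−0.0137), JUNB (−0.259), SLC39A14 (−0.00944), MAX (−0.0797), ZAP70 (−0.0745), MARS1 (0.0181) and DDIT4 (0.00802). With the mean of all spots it crossed 0 for JUNB (−0.0154), RPL31 (−0.00039) and MAX (−0.0376). SYT1 ran from −0.64 to 0.00907 with 1 replicate left out, crossing 0 without replicate 3 (0.0151 with a dye coefficient). A filter on low signals was not run, since ratios alone were used, and none of these tests weighs a bright spot against a dim one.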
